A study of Mus musculus with 36 samples.

Results

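Teneurins and FLRT proteins are adhesion molecules of the cell surface, and the mouse has 4 genes for the first family (Tenm1, Tenm2, Tenm3 and Tenm4) and 3 for the second (Flrt1, Flrt2 and Flrt3). These 7 genes, of 52636 in the count table, are the whole of both families, and no value decided which genes of a family were included. The families themselves were chosen with earlier results of these data known. Their RNA was measured by RNA-seq in 3 populations of cells sorted from diaphragm, pectoralis, forelimb and hindlimb muscles of S100β-GFP;NG2-dsRed mice. All of the mice carried both transgenes. GFP in them is driven by the promoter of S100b and dsRed by that of Cspg4, the gene of NG2, so that a cell was sorted by the use of these promoters and not by its place in the muscle. Cells with both colours (NG2DsRed+/S100GFP+ in the labels) are called perisynaptic Schwann cells (PSCs) and were compared with cells that had GFP alone (S100β-GFP+ cells) and cells that had dsRed alone (NG2-dsRed+ cells). No mouse was treated. The labels give ages from P15 to an upper day that ranges from P21 to P46 and rises with the library number up to library 26 and stays level after it. The study gives a narrower, juvenile range. Whether the later days are true ages cannot be told from the labels, and age was not used. The table holds 9 libraries of PSCs, 8 of S100β-GFP+ cells and 10 of NG2-dsRed+ cells, each from one mouse by the study's methods. After removing failed samples the study kept fewer S100β-GFP+ libraries than the table holds, and its text does not name those it removed. The labels do not say which libraries share a mouse.

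Teneurins are large proteins that cross the membrane once and bind each other and latrophilins on the opposing cell, and they are known for matching synaptic partners in the nervous system. FLRT proteins carry leucine-rich repeats and a fibronectin type III domain, and bind latrophilins, Unc5 receptors and other FLRT proteins, so that they can attract or repel cells, and they also associate with FGF receptors. At the neuromuscular junction the motor axon, the muscle fibre and the PSC lie against each other, and teneurins are known from insects to act at this synapse.

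The 2 families differ in how their genes are built (GENCODE M21, GRCm38). Tenm1 (ENSMUSG00000016150, chrX:42527866-43429126, minus strand) spans 901.3 kb, Tenm2 (ENSMUSG00000049336, chr11:36006656-37235964, minus strand) spans 1229.3 kb, Tenm3 (ENSMUSG00000031561, chr8:48227682-48843951, minus strand) spans 616.3 kb and Tenm4 (ENSMUSG00000048078, chr7:96171246-96911093, plus strand) spans 739.8 kb. Their coding sequence is cut into 29 to 33 segments. Flrt1 (ENSMUSG00000047787, chr19:7092001-7105729, minus strand), Flrt2 (ENSMUSG00000047414, chr12:95692226-95785215, plus strand) and Flrt3 (ENSMUSG00000051379, chr2:140650914-140671469, minus strand) span 13.7, 93.0 and 20.6 kb, and each has its coding sequence in 1 segment. Flrt1 lies within Macrod1 and Flrt3 within Macrod2, both on the opposite strand and with 0 exon bases in common. Exons of 3 teneurin genes overlap an exon of a gene on the opposite strand, Tenm1 with Sh2d1a over 1465 bases, Tenm3 with Gm19744 over 114 bases and Tenm4 with C230038L03Rik over 988 bases. No source used here states whether counting used strand, so reads in these stretches cannot be told apart. Over all libraries Sh2d1a had 29 counts, Gm19744 201 and C230038L03Rik 16.

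Libraries held between 5221655 and 9592875 counts on genes, of which Lars2, Gm23935 and Gm15564 took between 3.64% and 40.0%. The labelled cell types were checked against marker lists, each summed per library in counts per 1000000 (CPM, scaled by TMM factors). Schwann cell lineage markers summed to between 3155 and 4171 CPM in PSCs, 728.9 and 2053 CPM in S100β-GFP+ cells and 584 and 1055 CPM in NG2-dsRed+ cells. Sox10, the transcription factor that defines the lineage, averaged 505.9, 20.2 and 4.45 CPM, and most of the sum in NG2-dsRed+ cells came from Cspg4 at 665.2 CPM. The lineage list includes S100b and Cspg4, whose promoters drove the colours used for sorting, at means of 255.2 and 689.3 CPM in PSCs. Their part of the PSC sum follows from the sort and is no independent check. Fibroblast and leukocyte markers summed to between 9677 and 21073 CPM and between 1055 and 10174 CPM in S100β-GFP+ cells, so these libraries, which the study calls Schwann cells, held markers of other cells at a higher level than those of the lineage and are called S100β-GFP+ cells here. Pericyte and smooth muscle markers summed to between 6344 and 13921 CPM in NG2-dsRed+ cells. These libraries also held endothelial markers, between 1165 and 2618 CPM, and fibroblast markers, between 1264 and 12029 CPM. In PSCs endothelial markers summed to between 96.9 and 466.8 CPM. In S100β-GFP+ libraries 14, 17 and 22 endothelial markers summed to between 686.9 and 1980 CPM, against 117.6 to 176.1 CPM in the other 5, and called members and Flrt3 are given without them where that moved the fold by over 1.5 times, ended a call or turned the direction. In such bulk libraries fewer cells of a type and less RNA per cell cannot be told apart.

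Of the 7 genes 6 passed the filter on low counts, and the remaining one, Tenm1, was close to absent. Between PSCs and S100β-GFP+ cells 4 of the 6 tested genes passed an adjusted p of 0.05 (edgeR quasi-likelihood test, Benjamini-Hochberg over 15330 genes), where 47.0% of all tested genes did. Tenm2 and Tenm3 were higher in PSCs, and Tenm4 and Flrt2 were lower. Between PSCs and NG2-dsRed+ cells 4 of 6 passed, against 44.0% of all genes, with Tenm3 and Flrt3 higher and Tenm2 and Flrt2 lower in PSCs. Between S100β-GFP+ and NG2-dsRed+ cells 3 of 6 passed, against 33.3% of all genes, with Flrt2 and Flrt3 higher and Tenm2 lower in S100β-GFP+ cells. The median log2 fold change of the 6 genes in these comparisons was 0.16, -0.41 and 0.50, and that of all tested genes 0.04, 0.02 and -0.02. Called teneurins went in opposite directions in both comparisons with PSCs, and called FLRT genes did so between PSCs and NG2-dsRed+ cells. The 3 comparisons share libraries and are not independent of each other.

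**Figure D1:**
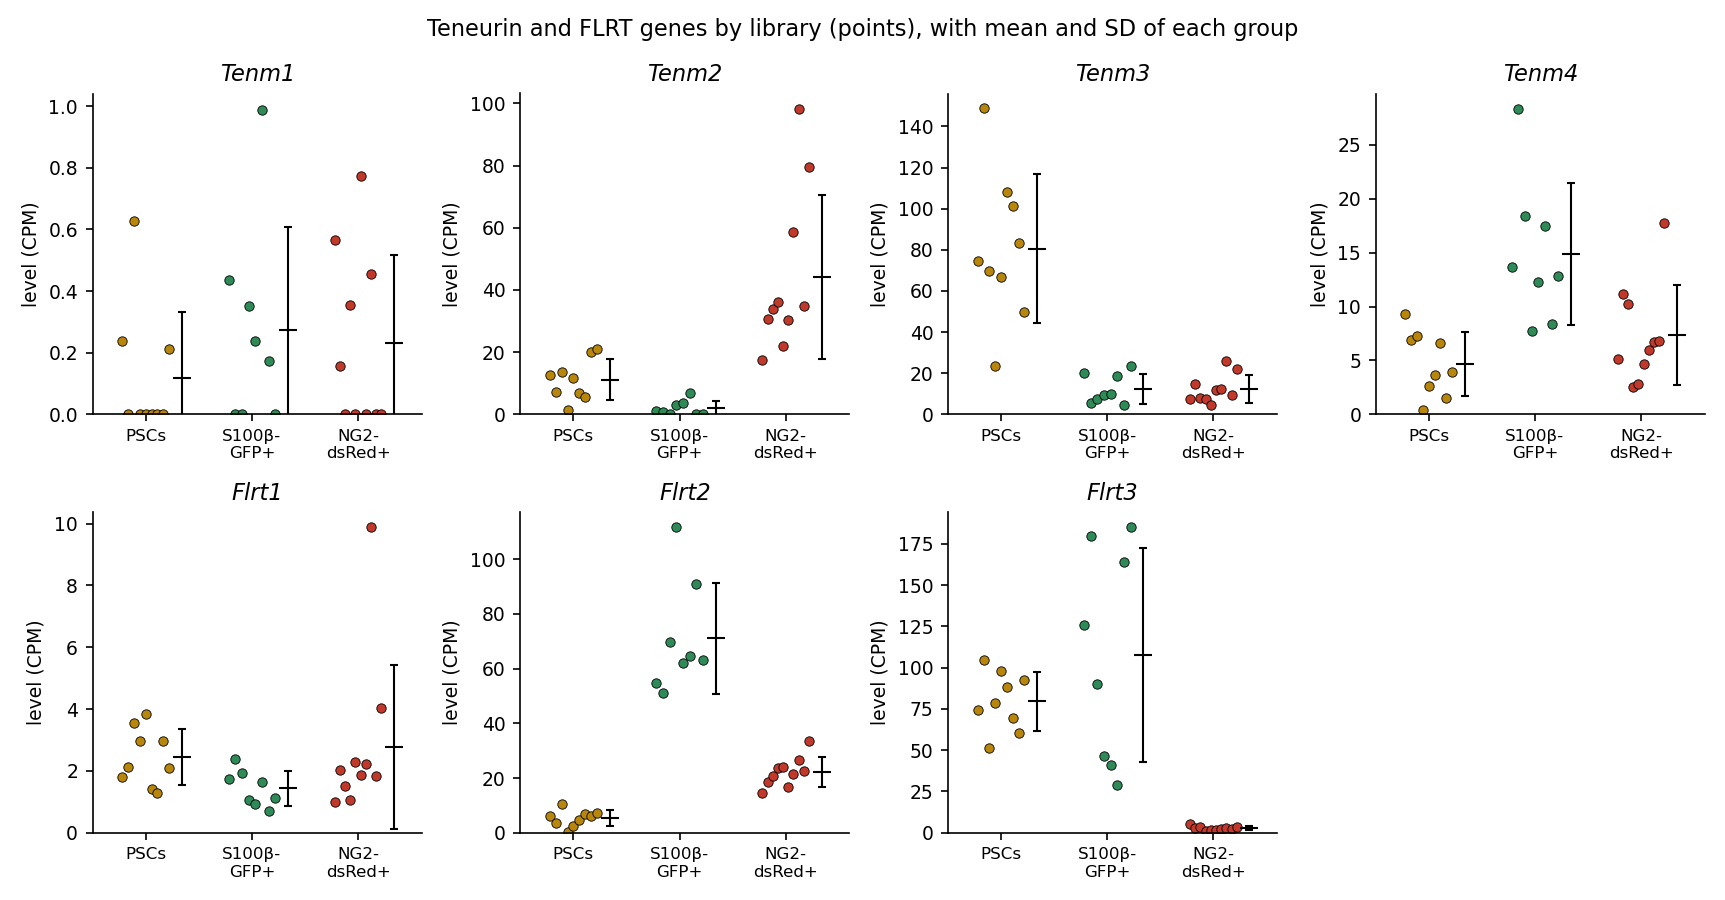
Level of each of the 7 genes in CPM (vertical axis, linear from 0, its own range in each panel) in each library, with points for libraries and a bar for the mean and SD of the group beside them. Tenm3 was highest in PSCs, Tenm2 in NG2-dsRed+ cells and Flrt2 in S100β-GFP+ cells, and Flrt3 was between 1.25 and 5.11 CPM in every NG2-dsRed+ library.

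**Figure D2:**
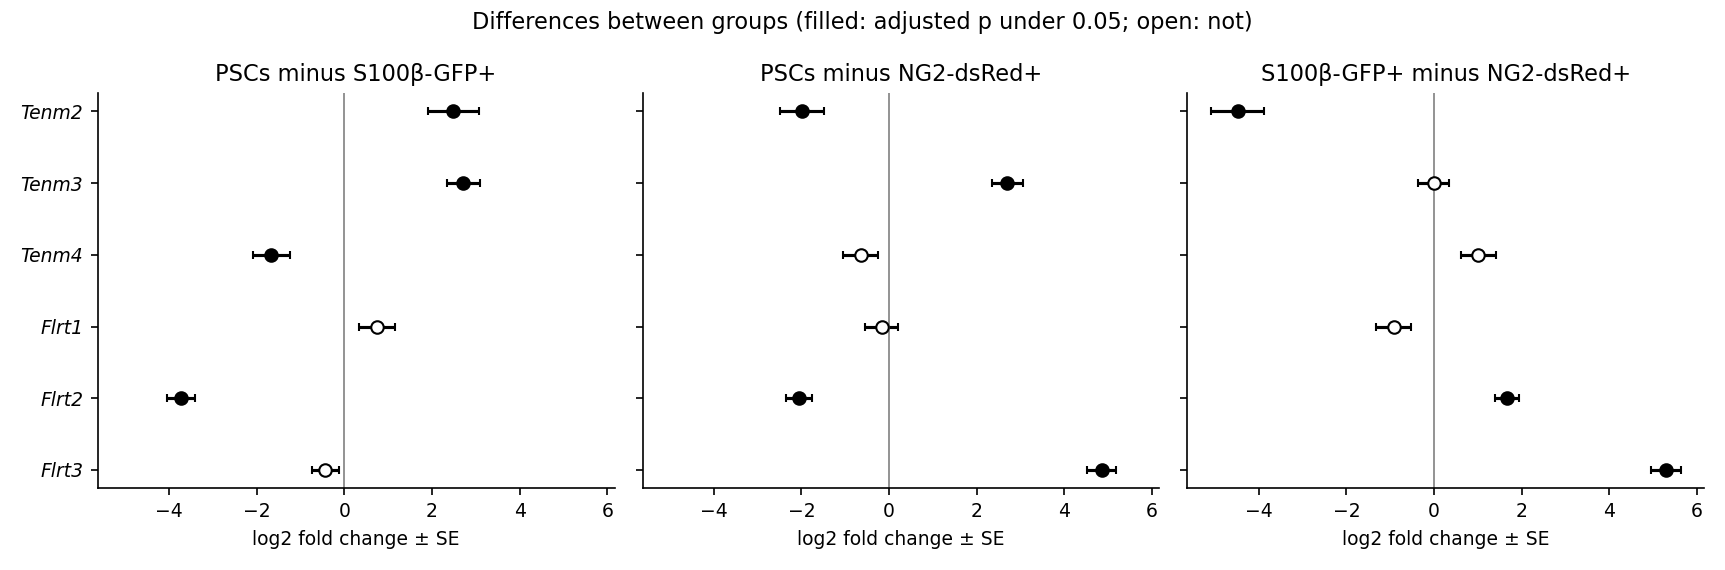
Log2 fold change with its standard error (horizontal axis) of the 6 tested genes in the 3 comparisons, filled where the adjusted p is under 0.05. Tenm2 lies on opposite sides of 0 in the 2 comparisons with PSCs, and Flrt2 is below 0 in both.

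Tenm3 was the highest teneurin per kilobase of exon in 9 of 9 PSC libraries, and also in 6 of 8 S100β-GFP+ libraries. Teneurin-3 is best known for guiding connections in the hippocampus and visual system by binding itself and latrophilins. Tenm3 was at 23.5, 74.3 and 148.8 CPM in the lowest, median and highest PSC library, and PSCs averaged 80.6 ± 36.1 CPM (SD, n = 9). Divided by plain totals without Lars2, Gm23935 and Gm15564 and with no TMM factor, this mean was 123.1 CPM. S100β-GFP+ libraries ranged from 4.53 to 23.3 CPM with a median of 9.52. NG2-dsRed+ libraries ranged from 4.56 to 25.7 CPM with a median of 10.5. Every PSC library was above every S100β-GFP+ library, and 8 of 9 PSC libraries were above every NG2-dsRed+ library. The exception was PSC library 18, which at 23.5 CPM lay just above the highest S100β-GFP+ library and below NG2-dsRed+ library 28. On the log2 scale Tenm3 in PSCs exceeded that in S100β-GFP+ cells by 2.72 ± 0.38 (SE) (edgeR adjusted p = 6.53e-07) and that in NG2-dsRed+ cells by 2.70 ± 0.35 (edgeR adjusted p = 1.93e-07). Groups that did not overlap in this direction made up 5.24% of all tested genes in the first comparison and 5.08% in the second. Between S100β-GFP+ and NG2-dsRed+ cells the log2 difference was -0.01 ± 0.35 (edgeR adjusted p = 0.986), and its sign changed with the setting. Per kilobase of exon, Tenm3 in PSCs was above 73.4% of the tested genes.

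Tenm2 ran in another order, highest in NG2-dsRed+ cells. Teneurin-2, also called Lasso, is a high-affinity ligand of latrophilin-1. NG2-dsRed+ libraries ranged from 17.6 to 98.3 CPM with a median of 34.4 and a mean of 44.2 ± 26.3 (SD, n = 10). PSC libraries ranged from 1.23 to 20.8 CPM with a median of 11.6 and a mean of 11.0 ± 6.59 (SD, n = 9). S100β-GFP+ libraries ranged from 0 to 6.91 CPM with a median of 1.02, and one of them had no count. All NG2-dsRed+ libraries lay above all S100β-GFP+ libraries, and 9 of the 10 above all PSC libraries. The log2 difference between PSCs and NG2-dsRed+ cells was -1.99 ± 0.50 (SE, edgeR adjusted p = 0.00152), and between S100β-GFP+ and NG2-dsRed+ cells -4.48 ± 0.61 (edgeR adjusted p = 8.70e-07). PSCs were above S100β-GFP+ cells by 2.49 ± 0.58 (edgeR adjusted p = 0.000777), with 6 of 9 PSC libraries above all S100β-GFP+ libraries. Both differences from S100β-GFP+ cells kept their direction but not their size.

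The low level in S100β-GFP+ cells was not even. Tenm2 was between 2.82 and 6.91 CPM in libraries 14, 17 and 22, those with high endothelial markers, and between 0 and 1.16 CPM in the other 5. Between PSCs and S100β-GFP+ cells the log2 difference was 4.45 without these 3 libraries (edgeR adjusted p = 7.96e-06), 3.16 without library 22 alone (edgeR adjusted p = 7.33e-05) and 1.34 with the 3 as the only S100β-GFP+ libraries (edgeR adjusted p = 0.104). It was 4.14 with limma-voom (adjusted p = 0.000234) and 1.87 with a term for the percent of counts on Lars2, Gm23935 and Gm15564 (edgeR adjusted p = 0.0171). Between S100β-GFP+ and NG2-dsRed+ cells it was -6.41 without the 3 libraries (edgeR adjusted p = 6.09e-08), -5.15 without library 22 (edgeR adjusted p = 1.51e-07), -3.30 with the 3 alone (edgeR adjusted p = 0.0013) and -5.82 with limma-voom (adjusted p = 1.18e-06). The size of these Tenm2 differences moved with the S100β-GFP+ libraries used. Pericyte and smooth muscle markers, which were 0 higher and 6 lower of 6 in S100β-GFP+ against NG2-dsRed+ cells, summed to between 812.2 and 1419 CPM in those 3 libraries and between 171 and 732.4 CPM in the other 5. Their part in the Tenm2 level was not tested. Among NG2-dsRed+ libraries the highest Tenm2 levels were in libraries 28, 35 and 26 (98.3, 79.6 and 58.7 CPM). These libraries had the highest summed fibroblast markers of the group (12029, 8851 and 6568 CPM). They also had its lowest summed pericyte and smooth muscle markers (6765, 6344 and 8636 CPM). The part of either cell type in these Tenm2 levels was not tested.

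Tenm4 was low in all populations and highest in S100β-GFP+ cells. Teneurin-4 is known from mice to be needed for oligodendrocytes to form myelin normally. S100β-GFP+ libraries ranged from 7.76 to 28.4 CPM with a median of 13.3. PSC libraries ranged from 0.350 to 9.30 CPM with a median of 3.90, and NG2-dsRed+ libraries from 2.49 to 17.8 CPM with a median of 6.33. The groups overlapped in every comparison, and 6 of 8 S100β-GFP+ libraries were above all PSC libraries. PSCs were lower than S100β-GFP+ cells by a log2 difference of -1.66 ± 0.42 (SE, edgeR adjusted p = 0.00168). With libraries 14, 17 and 22 as the only S100β-GFP+ libraries this was -1.36 (edgeR adjusted p = 0.0670). PSCs and NG2-dsRed+ cells differed by -0.65 ± 0.40 (edgeR adjusted p = 0.196). The log2 difference of 1.01 ± 0.40 between S100β-GFP+ and NG2-dsRed+ cells was at the threshold, with an edgeR adjusted p of 0.0517, and passed it in 5 of 8 alternatives and without any one of S100β-GFP+ libraries 14 and 27 or NG2-dsRed+ libraries 7, 9 and 35.

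Tenm1, the teneurin of the X chromosome, had 11 counts over 9 PSC libraries, 13 over 8 S100β-GFP+ libraries and 15 over 10 NG2-dsRed+ libraries. No library had more than 6 counts, and 6, 3 and 5 libraries had 0 counts. The mean level was 0.119, 0.273 and 0.231 CPM, where 3 counts over a group correspond to 0.0380, 0.0621 and 0.0450 CPM. Tenm1 did not pass the filter. With no filter its adjusted p in edgeR was 0.478 between PSCs and S100β-GFP+ cells, 0.71 between PSCs and NG2-dsRed+ cells and 0.925 between S100β-GFP+ and NG2-dsRed+ cells, so a difference was not detectable at this depth.

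Flrt3 had the largest log2 difference of the 6 tested genes, and Flrt2, like Tenm2, passed in all 3 comparisons. The 250 bases before their RefSeq start sites (GRCm38.p6), which for Flrt2 is the start of the GENCODE gene and for Flrt3 lies 7 bases outside it, are shown because these paralogues had opposite levels in PSCs. Capitals mark matches to the motifs searched on both strands, which were TATAAA for the core promoter element of that name, CCAAT for the factor NF-Y, GGGCGG for Sp1, ACAAAG as the core of the SOX motif and TGACGTCA as the cyclic AMP response element.
Flrt2, chr12:95691976-95692225, plus strand: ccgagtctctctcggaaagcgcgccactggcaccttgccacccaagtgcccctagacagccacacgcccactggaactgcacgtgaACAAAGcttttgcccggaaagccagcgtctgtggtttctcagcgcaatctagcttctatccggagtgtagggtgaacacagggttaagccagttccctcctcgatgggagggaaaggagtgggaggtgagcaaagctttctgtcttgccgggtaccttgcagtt
Flrt3, chr2:140671477-140671726, minus strand: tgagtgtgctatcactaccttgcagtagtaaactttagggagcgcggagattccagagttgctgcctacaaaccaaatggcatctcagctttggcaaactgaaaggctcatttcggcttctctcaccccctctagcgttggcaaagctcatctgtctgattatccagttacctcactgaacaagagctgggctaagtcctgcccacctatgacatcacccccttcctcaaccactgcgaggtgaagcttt

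The Flrt2 window held 1 match to the SOX core, which 16.5% of 32851 such mouse windows also held. The Flrt3 window held none of the motifs, which says only that these letters are not in it. CpG was present at 12 places in the Flrt2 window and at 5 in that of Flrt3. RefSeq windows were found for 6 of the 7 genes, all but Flrt1. Those of Tenm1, Tenm2 and Tenm3 lay 154342, 291723 and 169261 bases inside the GENCODE gene and are not shown, and the 2 windows of Tenm4 held none of the motifs.

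Flrt3 separated both GFP populations from NG2-dsRed+ cells. FLRT3 is known to bind latrophilin-3 at synapses between neurons and to act in FGF signalling of the embryo. PSC libraries ranged from 51.1 to 104.8 CPM with a median of 78.5 and a mean of 79.7 ± 17.9 (SD, n = 9). S100β-GFP+ libraries ranged from 28.8 to 185.1 CPM with a median of 108.0 and a mean of 107.7 ± 64.9 (SD, n = 8). NG2-dsRed+ libraries ranged from 1.25 to 5.11 CPM with a median of 2.55 and a mean of 2.73 ± 1.14 (SD, n = 10). The NG2-dsRed+ libraries overlapped neither of the other groups. The log2 difference from NG2-dsRed+ cells was 4.85 ± 0.33 (SE, edgeR adjusted p = 1.01e-12) for PSCs and 5.29 ± 0.34 (edgeR adjusted p = 1.20e-12) for S100β-GFP+ cells. The latter was 5.73 without libraries 14, 17 and 22 and 3.81 with these as the only S100β-GFP+ libraries, past the threshold in both. Groups that did not overlap made up 7.21% of all genes tested between S100β-GFP+ and NG2-dsRed+ cells with S100β-GFP+ higher, and 4.38% with it lower, as for Tenm2. The share between PSCs and NG2-dsRed+ cells with PSCs higher was 5.08%. Per kilobase of exon the level of Flrt3 exceeded those of 86.5% of tested genes in PSCs, of 89.2% where GFP was alone and of 14.2% where dsRed was alone.

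Between PSCs and S100β-GFP+ cells the level of Flrt3 differed by -0.43 ± 0.30 on the log2 scale (edgeR adjusted p = 0.235), and the S100β-GFP+ libraries fell on both sides of the PSCs. Libraries 22, 17 and 14 were at 28.8, 40.9 and 46.8 CPM, below every PSC library. The other 5 were between 89.9 and 185.1 CPM, and 4 of these were above every PSC library. With libraries 14, 17 and 22 left out Flrt3 was lower in PSCs by 0.85 on the log2 scale (edgeR adjusted p = 0.00275), and with these 3 as the only S100β-GFP+ libraries it was 1.07 higher in PSCs (edgeR adjusted p = 0.00581). The direction of this comparison thus turned with the S100β-GFP+ libraries that entered it. In libraries 14, 17 and 22 the 5 endothelial markers summed to 686.9, 1980 and 1097 CPM and the 5 leukocyte markers to 3460, 2278 and 1055 CPM, against 4971 to 10174 CPM of leukocyte markers in the other 5. None of the endothelial markers was at 0 in any library. Schwann cell lineage markers overlapped, at 728.9 to 1648 CPM in the 3 libraries and 736.8 to 2053 CPM in the other 5. The part of the other cell types in the level of Flrt3 was not tested.

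**Figure D3:**
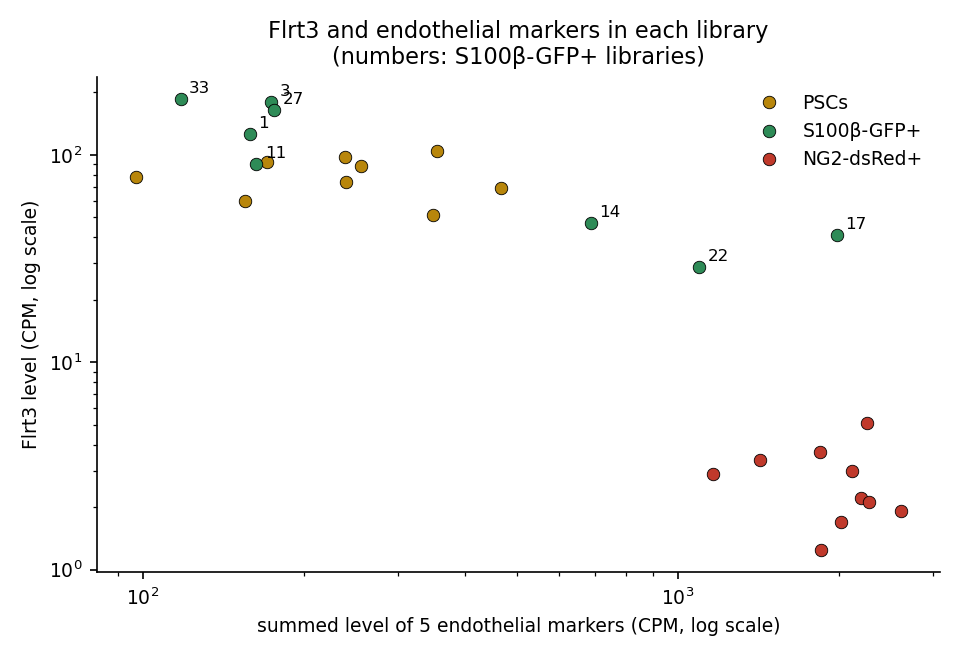
Flrt3 in CPM (vertical axis, log scale) against the summed CPM of Pecam1, Cdh5, Kdr, Tek and Emcn (horizontal axis, log scale), 1 point per library, with library numbers at the S100β-GFP+ points. S100β-GFP+ libraries 14, 17 and 22 lie at high marker levels and between 28.8 and 46.8 CPM of Flrt3, apart from the other 5.

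Flrt2 ordered the 3 populations with no overlap. FLRT2 is known as a ligand of Unc5 receptors that repels migrating neurons. S100β-GFP+ libraries ranged from 51.0 to 111.7 CPM with a median of 64.0 and a mean of 71.1 ± 20.3 (SD, n = 8). NG2-dsRed+ libraries ranged from 14.5 to 33.6 CPM with a median of 22.1 and a mean of 22.3 ± 5.39 (SD, n = 10). PSC libraries ranged from 0.350 to 10.6 CPM with a median of 6.15 and a mean of 5.31 ± 3.01 (SD, n = 9). No 2 groups overlapped. PSCs were below S100β-GFP+ cells by a log2 difference of -3.73 ± 0.32 (SE, edgeR adjusted p = 6.16e-11) and below NG2-dsRed+ cells by -2.06 ± 0.29 (edgeR adjusted p = 1.18e-06), and S100β-GFP+ cells were above NG2-dsRed+ cells by 1.67 ± 0.28 (edgeR adjusted p = 2.34e-05). Groups that did not overlap with PSCs lower made up 10.3% and 8.83% of all tested genes. Flrt2 kept these directions and calls with and without libraries 14, 17 and 22, where it was between 62.2 and 111.7 CPM. The 5 fibroblast markers had the same order of groups, at 9677 to 21073 CPM in S100β-GFP+ cells, 1264 to 12029 CPM in NG2-dsRed+ cells and 424.1 to 1745 CPM in PSCs, and all 5 were called lower in PSCs than in either of the other groups. None of the 5 was at 0 in any library. Between S100β-GFP+ and NG2-dsRed+ cells 3 of the 5 were called higher and 2 did not pass. Within groups the orders differed in part. NG2-dsRed+ libraries 35 and 28 had the most Flrt2 and the highest fibroblast sums of their group, but library 15, the next in Flrt2 at 24.0 CPM, had a sum of 1996 CPM, and PSC library 12, with the most Flrt2 of the PSCs at 10.6 CPM, had a sum of 582.8 CPM against 1745 CPM in library 34. Their part in the level of Flrt2 was not tested.

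Flrt1, which had the lowest mean per kilobase of exon of the FLRT genes in all 3 groups, passed in no comparison. PSC libraries ranged from 1.29 to 3.83 CPM, S100β-GFP+ libraries from 0.697 to 2.38 CPM and NG2-dsRed+ libraries from 0.993 to 9.89 CPM, with medians of 2.12, 1.38 and 1.95 CPM. The groups overlapped throughout, and these levels rest on 4 to 65 counts per library. The log2 differences were 0.75 ± 0.41 (SE, edgeR adjusted p = 0.139) between PSCs and S100β-GFP+ cells, -0.17 ± 0.38 (edgeR adjusted p = 0.741) between PSCs and NG2-dsRed+ cells and -0.92 ± 0.40 (edgeR adjusted p = 0.0820) between S100β-GFP+ and NG2-dsRed+ cells. NG2-dsRed+ library 28 alone held 65 of the 183 counts of its group, and without it the difference between PSCs and NG2-dsRed+ cells was 0.38 (edgeR adjusted p = 0.348).

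To compare the members of a family with each other, each was expressed per kilobase of merged exon and as a percent of the family's summed level in each library, with no test. In PSCs Tenm3 held a median of 85.2% of the teneurin level (range 70.6% to 94.9%) and was the highest teneurin in 9 of 9 libraries. In NG2-dsRed+ cells Tenm2 held a median of 70.6% (57.1% to 78.7%) and was the highest in 10 of 10. In S100β-GFP+ cells Tenm3 held 52.9% and Tenm4 28.2%, and Tenm3 was the highest in 6 and Tenm4 in 2 of 8 libraries. The dominant teneurin therefore differed between PSCs and NG2-dsRed+ cells in every library, while that of S100β-GFP+ cells was mixed. The summed teneurin level averaged 9.06 ± 3.56 CPM per kb (SD) in PSCs, against 5.42 ± 3.01 in NG2-dsRed+ cells and 2.10 ± 0.812 in S100β-GFP+ cells.

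Among FLRT genes Flrt3 held a median of 93.7% of the family's level in PSCs (84.1% to 96.7%), highest in 9 of 9 libraries. Flrt2 held 76.3% in NG2-dsRed+ cells (60.4% to 87.5%), highest in 10 of 10. In S100β-GFP+ cells Flrt3 held 70.1% and Flrt2 29.2%, with ranges of 39.6% to 84.1% and 15.0% to 59.6%, and Flrt2 was the highest in 2 of 8 libraries. In S100β-GFP+ cells both genes were high, at means of 107.7 CPM for Flrt3 and 71.1 CPM for Flrt2. The summed FLRT level averaged 31.6 ± 12.8 CPM per kb (SD) in S100β-GFP+ cells, against 17.5 ± 3.41 in PSCs and 3.92 ± 1.01 in NG2-dsRed+ cells. By these means PSCs had the highest sum of teneurins and S100β-GFP+ cells that of FLRT genes, but ranges overlapped. Teneurin sums ranged from 2.42 to 15.5 in PSCs and from 2.50 to 11.4 in NG2-dsRed+ cells. FLRT sums ranged from 14.6 to 46.4 in S100β-GFP+ cells and from 12.5 to 22.35 in PSCs. S100β-GFP+ libraries 17 and 22, at 16.63 and 14.58, lay below the PSC median of 16.69.

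**Figure D4:**
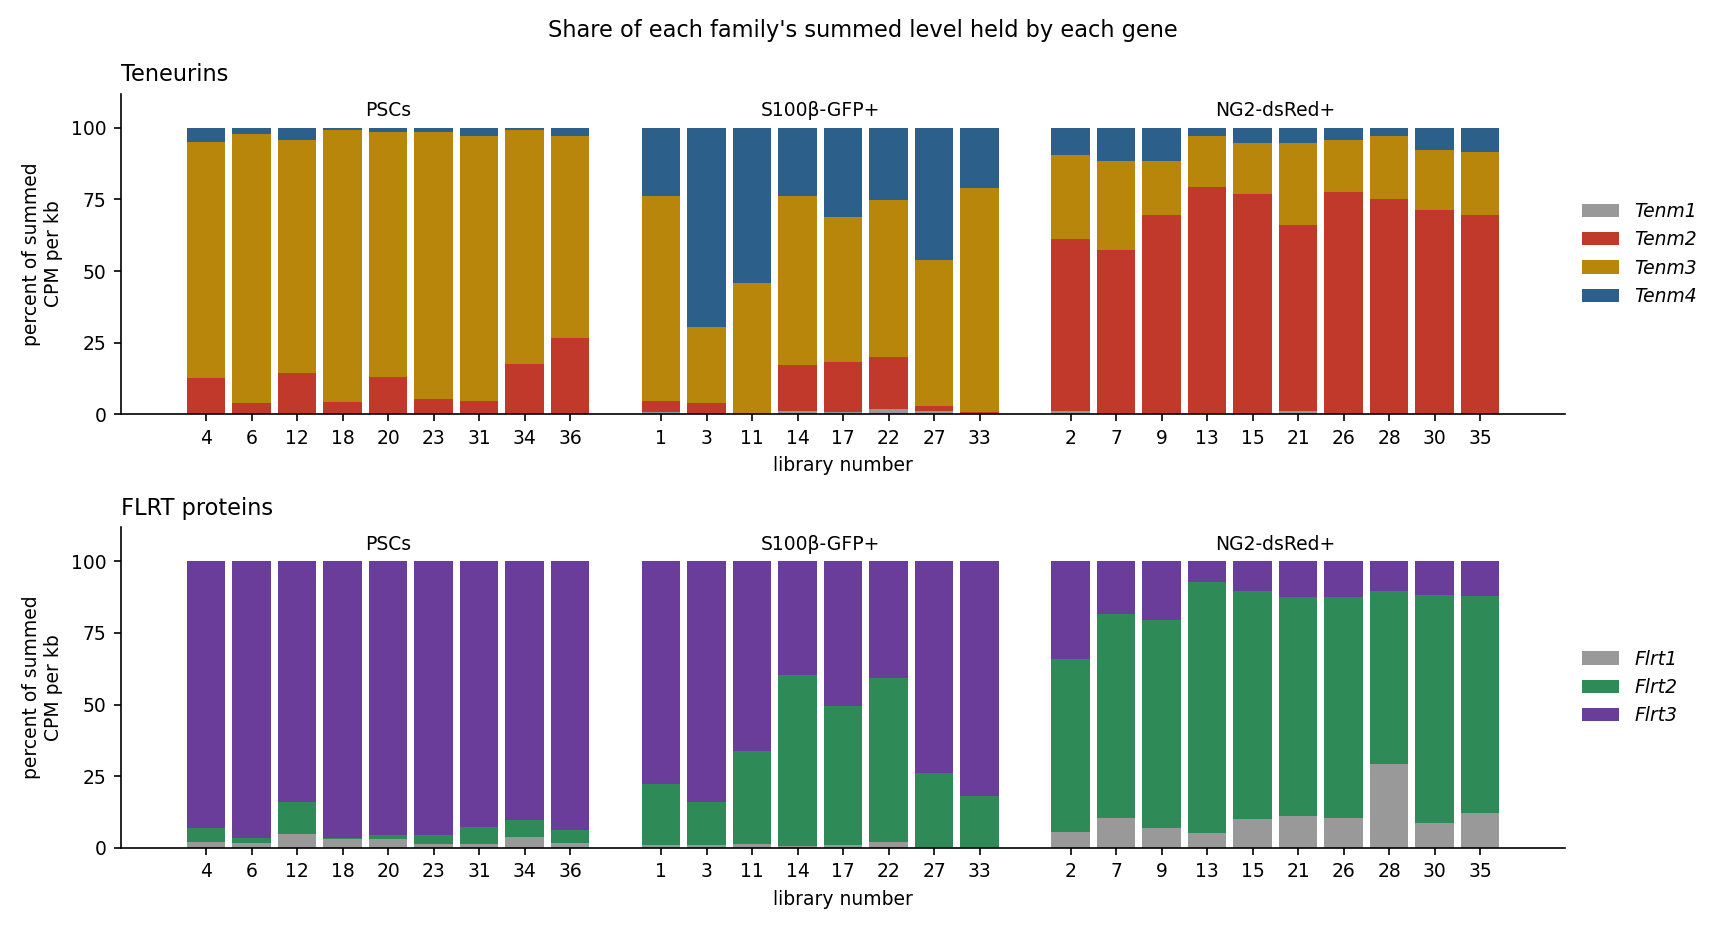
Percent of the family's summed CPM per kb (vertical axis) held by each gene, 1 bar per library (horizontal axis, library number), teneurins above and FLRT genes below. Tenm3 and Flrt3 fill most of each PSC bar, Tenm2 and Flrt2 most of each NG2-dsRed+ bar, and S100β-GFP+ bars vary.

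Genes for proteins known to bind teneurins or FLRT proteins were read from the same test, together with Adgrl4, listed only as a relative of the latrophilins. These partner genes were 14 in all, of which 13 passed the filter (all but Unc5d). Between PSCs and S100β-GFP+ cells 3 were higher and 4 lower in PSCs, against NG2-dsRed+ cells 2 were higher and 8 lower, and between S100β-GFP+ and NG2-dsRed+ cells 2 were higher and 4 lower in S100β-GFP+ cells. Their median log2 fold change was -0.60, -0.69 and -0.38. The shares called among all genes were 22.9% higher and 24.1% lower in the first comparison, 20.9% and 23.1% in the second and 18.1% and 15.2% in the third. The compared groups did not overlap for 5, 3 and 2 of the 13 genes, and for 15.5%, 13.9% and 11.6% of all tested genes.

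Latrophilins, adhesion G protein-coupled receptors that bind both families, divided by paralogue as the families did. Adgrl3, the gene of latrophilin-3, ranged from 94.5 to 227.6 CPM with a median of 161.1 in PSCs, from 1.24 to 22.0 CPM with a median of 8.26 in S100β-GFP+ cells and from 1.58 to 6.31 CPM with a median of 3.43 in NG2-dsRed+ cells. PSCs overlapped neither group, and their level was 4.18 ± 0.41 (SE, edgeR adjusted p = 1.03e-09) and 5.34 ± 0.40 (edgeR adjusted p = 4.97e-12) higher on the log2 scale. Adgrl3, Dag1 and Tenm3 are on a list of PSC genes that the study chose from these libraries, so their direction is not independent evidence. Adgrl1 and Adgrl2 were highest in NG2-dsRed+ cells, at means of 61.8 and 107.0 CPM where PSCs had 38.2 and 73.7 CPM and GFP-only libraries 35.1 and 36.9 CPM. Adgrl1 was lower in PSCs than in NG2-dsRed+ cells by a log2 difference of -0.69 ± 0.21 (edgeR adjusted p = 0.00914). Adgrl2 did not pass there, at -0.54 ± 0.29 (edgeR adjusted p = 0.131). PSCs were above S100β-GFP+ cells in Adgrl2 by 1.00 ± 0.31 (edgeR adjusted p = 0.00815), which was 1.90 (edgeR adjusted p = 1.03e-06) without libraries 14, 17 and 22 and 0.25 (edgeR adjusted p = 0.524) with these as the only S100β-GFP+ libraries. Adgrl4, a related receptor of endothelial cells, averaged 235.4 CPM in NG2-dsRed+ cells and ranged from 14 to 99.0 CPM in PSCs. Among S100β-GFP+ libraries it was between 66.2 and 298.9 CPM in libraries 14, 17 and 22 and between 0.222 and 8.75 CPM in the other 5. The log2 difference between PSCs and S100β-GFP+ cells was -1.02 ± 0.72 (edgeR adjusted p = 0.255). Without libraries 14, 17 and 22 this difference was 2.80 (edgeR adjusted p = 0.000132), and with these as the only S100β-GFP+ libraries -2.33 (edgeR adjusted p = 0.000408).

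Dag1 encodes dystroglycan, a laminin receptor that has also been tied to teneurins. It ranged from 2287 to 3656 CPM in PSCs, 175.5 to 428.1 CPM in S100β-GFP+ cells and 301.5 to 419.2 CPM in NG2-dsRed+ cells. PSC libraries stood apart from both other groups, by 3.40 ± 0.17 (SE, edgeR adjusted p = 5.30e-15) and 3.03 ± 0.16 (edgeR adjusted p = 2.68e-15) on the log2 scale.

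Of the netrin receptors that bind FLRT proteins, Unc5b was highest in NG2-dsRed+ cells. It ranged from 26.2 to 119.9 CPM there, from 5.11 to 24.6 CPM in S100β-GFP+ cells and from 1.05 to 13.2 CPM in PSCs. NG2-dsRed+ cells overlapped neither group, and PSCs were lower by a log2 difference of -3.65 ± 0.40 (SE, edgeR adjusted p = 9.94e-09). The difference of -1.01 ± 0.39 between PSCs and S100β-GFP+ cells (edgeR adjusted p = 0.0323) was -0.15 without libraries 14, 17 and 22 (edgeR adjusted p = 0.782), and its adjusted p was above 0.05 without any one of PSC libraries 12, 18, 20 and 36 or S100β-GFP+ libraries 17 and 22. It was also lost with only the compared groups in the fit (-1.03, edgeR adjusted p = 0.0654), with limma-voom (-0.56, adjusted p = 0.316) and with a term for the percent of counts on the 3 genes Lars2, Gm23935 and Gm15564 (-0.43, edgeR adjusted p = 0.38). Unc5a and Unc5c passed in no comparison of the main edgeR fit. Unc5d had 10 counts over all PSCs, 31 over S100β-GFP+ libraries and 16 over those with dsRed alone.

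Robo1, a receptor of Slit proteins that associates with FLRT3, was low in PSCs, from 0 to 3.73 CPM, against 6.88 to 26.8 CPM in S100β-GFP+ cells and 1.58 to 11.8 CPM in NG2-dsRed+ cells. PSCs were lower by a log2 difference of -3.68 ± 0.55 (SE, edgeR adjusted p = 2.04e-06) and -2.53 ± 0.52 (edgeR adjusted p = 0.000199). Robo2 was also lower in PSCs than in NG2-dsRed+ cells, by -2.17 ± 0.51 (edgeR adjusted p = 0.000903). Fgfr1, the FGF receptor best known to associate with FLRT proteins, followed Flrt2 in being highest in S100β-GFP+ cells, at 217.8 to 376.5 CPM against 38.5 to 110.1 CPM in PSCs and 72.3 to 111.3 CPM in NG2-dsRed+ cells. Its log2 difference was -2.01 ± 0.18 (edgeR adjusted p = 2.59e-10) between PSCs and S100β-GFP+ cells and 1.56 ± 0.18 (edgeR adjusted p = 3.39e-08) between S100β-GFP+ and NG2-dsRed+ cells. Between PSCs and NG2-dsRed+ cells it was -0.45 ± 0.17 (edgeR adjusted p = 0.0316), and its adjusted p was above 0.05 without any one of PSC libraries 4, 12, 18, 20, 34 and 36 or NG2-dsRed+ libraries 28, 30 and 35. This call was also lost with no filter (edgeR adjusted p = 0.0836), with only the compared groups (edgeR adjusted p = 0.0711) and with the term for the percent of counts on Lars2, Gm23935 and Gm15564 (edgeR adjusted p = 0.0819). PSCs had little Fgfr2, at a mean of 0.763 CPM.

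Single libraries decided the values of Unc5c and Fgfr3. Library 31 held 103 of the 136 Unc5c counts and 164 of the 225 Fgfr3 counts of all PSCs, and its tendon and cartilage markers summed to 698.1 CPM against a median of 17.3 CPM over PSC libraries. Without it Unc5c was lower in PSCs by a log2 difference of -2.0 against S100β-GFP+ cells (edgeR adjusted p = 0.0168) and -1.97 against NG2-dsRed+ cells (edgeR adjusted p = 0.0157), where with it the differences were 0.12 and 0.15. With it in place DESeq2 gave -1.89 (adjusted p = 0.0129) and -1.78 (adjusted p = 0.0135), and limma-voom -1.04 (adjusted p = 0.23) and -1.45 (adjusted p = 0.0498). S100β-GFP+ library 22 in turn held 47 of the 87 Unc5c counts of its group, and no fit left out both libraries. Fgfr3 without it was at -2.23 (edgeR adjusted p = 0.00386) and -4.04 (edgeR adjusted p = 4.94e-06), where with it the differences were -0.26 and -2.08. The Fgfr3 difference between PSCs and S100β-GFP+ cells also turned with the S100β-GFP+ libraries, to 0.11 without library 17, 0.21 without library 22 and 1.45 (edgeR adjusted p = 0.215) without libraries 14, 17 and 22, and was 0.53 with the term for Lars2, Gm23935 and Gm15564. The part of tendon or cartilage cells was not tested. The teneurins and FLRT genes of library 31 lay inside the range of the other PSC libraries, apart from Flrt1, which was lowest there at 1.29 CPM.

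**Figure D5:**
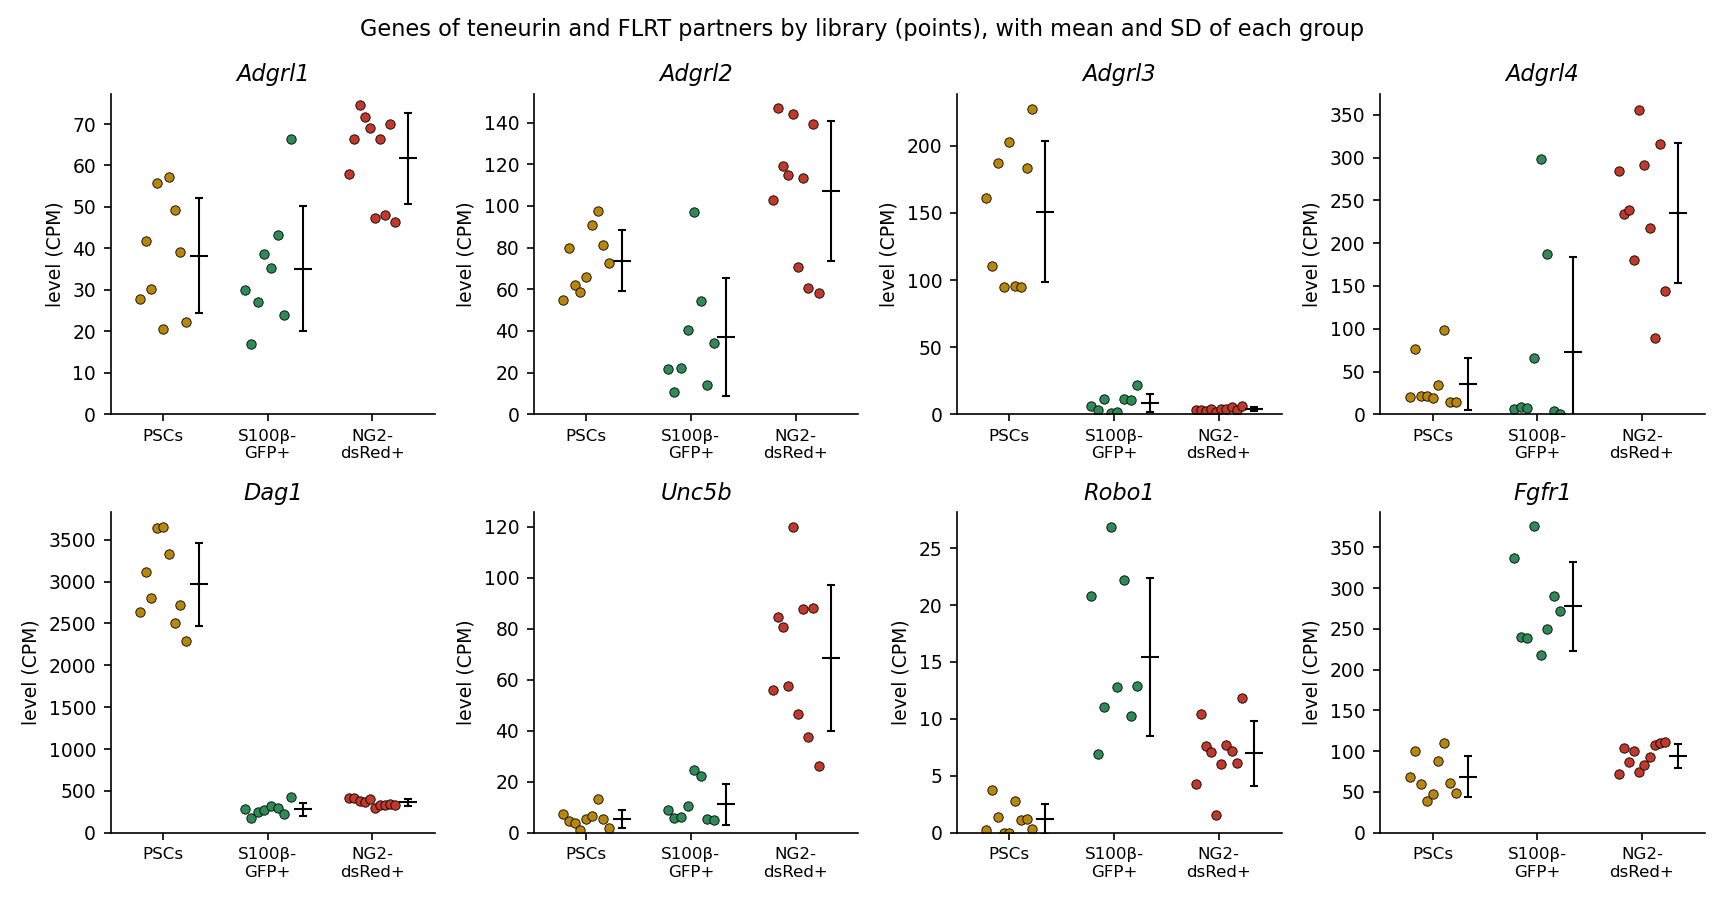
Level in CPM (vertical axis, linear from 0) of 8 of the partner genes in each library, Adgrl4 being shown as a relative of the latrophilins. Points are libraries, and a bar gives the mean and SD of the group. Adgrl3 and Dag1 in PSCs, Unc5b in NG2-dsRed+ cells and Fgfr1 in S100β-GFP+ cells overlap no other group.

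The tested genes with patterns most like each member were found by the root mean square difference in centred log2 CPM over all 27 libraries, as a description. Flrt2 was closest to Sulf1 and C1ra, at 0.55 log2 units each, and Flrt3 to Iqgap2 at 0.66. Tenm3 had Gria3 and Abca8b among its nearest genes, each at 0.67, and Tenm4 was closest to Agt at 0.60. Gria3, a subunit of AMPA receptors, averaged 31.9 CPM in PSCs and 7.11 and 4.71 CPM in the GFP-only and dsRed-only libraries. Klhl23 was nearest to Tenm2, at 1.02. The difference is not scaled to a gene's own spread, so its size cannot be compared between members. Flrt1 was closest to Usp42 at 0.50, a gene with means between 19.9 and 31.6 CPM.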

How the data were processed

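Cells were sorted by FACS, their RNA was made into cDNA with SMART-Seq v4, which amplifies small amounts before sequencing, and per the labels the reads were aligned with HISAT2 to GRCm38. The authors ran HTSeq to count reads on genes and deposited raw counts, as whole numbers. No source used here names tool versions or the annotation. The table has columns for 27 of the 36 labelled libraries, and the others were not analysed here. GENCODE M21 (GRCm38) holds 99.56% of the table's identifiers and gave symbols, positions and exon lengths. No 2 libraries were identical, and pairs of one group differed by more than sampling noise, with 8.10 as the lowest chi-square divided by its degrees of freedom.

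In R 4.3.3, counts were fitted with edgeR 4.0.16 (TMM, filterByExpr with minimum count 10, all 3 groups in one quasi-likelihood fit, Benjamini-Hochberg at 0.05 over 15330 genes). The SE of a log2 fold change was derived from its F statistic. CPM were divided by TMM-scaled totals of counts. Depth was between 5221655 and 9592875 counts per library, and a floor of 3 counts covers counting error only, since PCR copies cannot be told apart. The other settings were the Wald test of DESeq2 1.42.0, its size factors in edgeR, no filter, only the compared groups, limma-voom 3.58.1 with quality weights, a term for the percent of counts taken by Lars2, Gm23935 and Gm15564, fits with and without S100β-GFP+ libraries 14, 17 and 22, each library left out, and for levels and shares totals without those 3 genes and no division by length. The fits were tested on simulated data.

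The families, partners and marker lists were chosen with earlier results of these data known, and each family was then taken whole. Named are the members, partners, markers and the 3 genes nearest each member in centred log2 CPM (prior count 2), of which those printed were chosen after their values were seen. Some genes of these lists are not reported here. Promoter sequences are from RefSeq.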

Additional observations from a re-analysis of the deposited data

Results flagged for a closer look

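A single low library stood out in 2 of 21 tests made for a sample far from the others of its group, where chance alone gives about 1 in 20. The tests were made on log2 CPM (prior count 2), where low levels lie further apart than in CPM. Both were PSC library 18. Tenm2 was at 1.23 CPM there (7 counts), and the next PSC library was at 5.58 CPM. Flrt2 was at 0.350 CPM (2 counts), and the next was at 2.39 CPM. The same library also had the lowest Tenm3 and Tenm4 of all PSC libraries, at 23.5 and 0.350 CPM, while its Flrt3 (78.5 CPM) was at the median and its Flrt1 (2.98 CPM) was above it. It had the fewest counts of the PSC libraries (5334916), and the highest sums of muscle fibre markers (1170 CPM, against a PSC median of 326.6), leukocyte markers (570 CPM, against a median of 128) and pericyte and smooth muscle markers (681 CPM, against a median of 369). Its Schwann cell lineage sum (3302 CPM) lay within the range of the other PSC libraries. The part of depth and of other cells in these values was not tested.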

How the results depend on the processing

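Of 18 comparisons of single teneurin and FLRT genes, 12 kept direction and side of the threshold under every alternative and with each library left out, as did 20 of 39 of partner genes. With other totals 4 of 21 mean CPM of members moved by over 1 SD, and 3 of 21 family shares moved with length or libraries. With no filter 16556 genes passed between PSCs and S100β-GFP+ cells and 10586 between S100β-GFP+ and NG2-dsRed+ cells (7198 and 5099 with it), of 44705 genes tested, and between PSCs and NG2-dsRed+ cells 8101 (6743 with it). With S100β-GFP+ libraries 14, 17 and 22 alone 2484 genes and 2 partner genes passed against NG2-dsRed+ cells, Tenm2 was at 1.34 and Tenm4 at -1.36 from PSCs, no longer past the threshold, and Flrt3 turned to 1.07, against -0.85 without those libraries. Tenm4 between S100β-GFP+ and NG2-dsRed+ cells passed with DESeq2 (1.07, adjusted p = 0.0323), its size factors (1.07), only the compared groups (1.03), limma-voom (1.08) and the share of the 3 genes as a term (1.04), and ranged from 0.81 to 1.29 with single libraries left out. Tenm3 between these groups, never called, turned to 0.04 with DESeq2 and with its size factors, 0.00 with only the compared groups and 0.01 with the 3 libraries alone, and ranged from -0.21 to 0.21. Flrt1 between PSCs and NG2-dsRed+ cells, never called, was 0.21 with limma-voom and ranged from -0.27 to 0.38. The cause of these changes was not tested. No paired analysis was possible because the labels do not tie libraries of different groups to a mouse. Tenm1 and, at a few counts per library, Flrt1 and Tenm2 in S100β-GFP+ cells are limited by depth.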
